A study of Mus musculus with 8 samples.

Results

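The genes followed here, 10 in all, are used as markers of the pyramidal neurons of hippocampal areas CA2 and CA3. They were read across the hippocampal arrays of this study and are Rgs14, Pcp4, Amigo2, Cacng5, Necab2, Bok, Iyd, Grik4, Cpne4 and Map3k15. They were chosen by name, and all 10 were found under their current names on the array, on 13 of its 55681 probes. A probe entered the tests if its signal was well above background, by the scanner software's own call, on 4 or more of the 8 arrays. This left 12 probes of 9 member genes among 23607 genes and unnamed probes. Iyd did not enter, since no array gave its only probe a signal well above background.

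The arrays held hippocampal RNA of female C57BL6/J mice, labelled as 8 weeks old. All mice had been housed for 4 weeks in an enriched environment, so the series has no standard-housing group. The 4 control samples came from mice given a control antibody, whose kind the labels do not state. The 4 anti-CD4 samples came from mice given an antibody to CD4, a receptor on helper T cells, and are labelled as CD4 depleted, a depletion not measured here. The labels do not say whether each sample was a separate animal, and p-values cover only the sample-to-sample spread, part of which could be technical. All arrays lay on 1 slide, with the anti-CD4 arrays in its first row and the controls in its second, so a row effect and a group effect cannot be told apart. Arrays with the same number shared a slide column, so each of the 4 columns held 1 array of each group.

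Area CA3 receives the mossy fibres of dentate granule cells and sends the Schaffer collaterals to CA1. CA2 is the small field between CA3 and CA1, known for its resistance to long-term potentiation and for its part in social memory. The members fall into groups by the field they are used to mark. Rgs14, Pcp4, Amigo2, Cacng5, Necab2 and Map3k15 are used as CA2 markers, Bok, Iyd and Grik4 as CA3 markers, and Cpne4 marks pyramidal cells of this end of the hippocampus. None is unique to these cells: Pcp4 and Necab2 are also strongly expressed in striatum, and Pcp4 in dentate granule cells.

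Markers of the other hippocampal fields were measured in the same tissue. Prox1, the dentate granule cell factor, and Wfs1, a CA1 marker, were well above background on all 8 arrays, as were all 9 tested members. Arrays hold RNA of a whole dissection, so fewer cells of a type and less RNA per cell cannot be told apart. Choroid plexus tissue varied between dissections of both groups. Relative to the control mean, its list mean ran from -2.58 to 2.16 in controls and from -1.88 to 2.61 in the anti-CD4 arrays (log2, 12 genes).

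No member differed between the groups at an adjusted p under 0.05 in limma (0 of 9, against 0.00% of all genes tested). Cacng5 stood highest of the members in the anti-CD4 group, 1.47-fold above controls, and it was the only one whose groups did not overlap. Map3k15 came next at 1.29-fold. Bok lay lowest, with controls 1.25-fold above the anti-CD4 group. Cacng5 and Map3k15 were the 2 of 9 members with an unadjusted p under 0.05, both higher with anti-CD4, against 13.0% of all genes tested (6.17% higher and 6.83% lower, or 8.76% and 4.06% with arrays centred on their median). Groups that did not overlap were seen for 1 of 9 members, against 8.19% of all genes tested (3.83% higher and 4.36% lower). Signs were mixed: 4 members were above controls and 5 below, where 51.8% of all genes tested were above and 48.2% below. Their median difference was -0.10, against 0.0068 over all genes tested. Against these shares, 1 or 2 of 9 members is too small a count to set the markers apart from other genes.

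**Figure D1:**
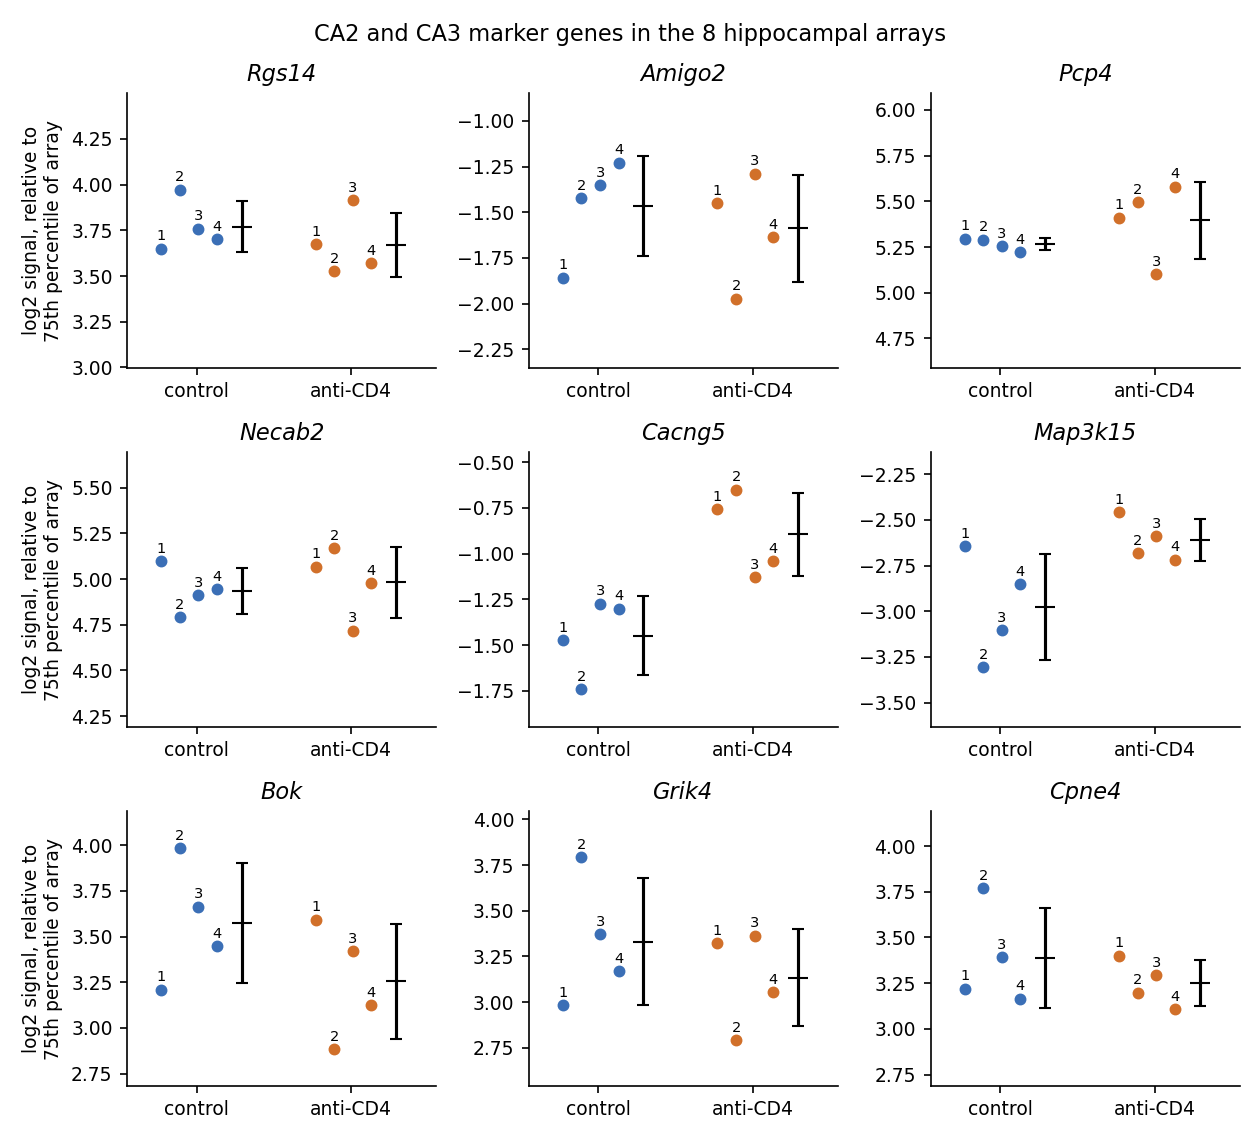
Log2 signal of each tested CA2 or CA3 marker gene, relative to its array's 75th percentile, in the 4 control arrays (blue) and 4 anti-CD4 arrays (orange). Numbers are replicate numbers, and the black bar gives the group mean with its SD; every panel spans 1.5 log2 units. The Cacng5 groups do not overlap, while control 2 is the highest array for Rgs14, Bok, Grik4 and Cpne4.

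Cacng5 encodes an auxiliary subunit of AMPA-type glutamate receptors of the TARP family. It read -1.47, -1.74, -1.27 and -1.30 in controls 1 to 4 and -0.76, -0.65, -1.13 and -1.04 in anti-CD4 arrays 1 to 4 (log2 relative to the array's 75th percentile). All 4 anti-CD4 arrays lay above all 4 controls, but anti-CD4 3 was only a little above control 3. The group means were -1.45 ± 0.22 and -0.89 ± 0.23 (SD, n = 4), a difference of 0.55 with a standard error of 0.14 and a 95% interval of 0.23 to 0.88. It did not pass the adjusted threshold (adjusted p = 0.247, limma), and the exact two-sided permutation test over arrays gave p = 0.0286, the smallest that 4 against 4 can give. Differences of this size or larger in either direction were seen for 2.65% of all genes tested. The difference was 0.50 after normexp background correction and 0.40 in the authors' table. Within the 4 slide columns it was 0.72, 1.09, 0.14 and 0.26, and with the column as a block the adjusted p was 0.473 (limma).

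The Cacng5 value rests on 1 probe on the minus strand of chromosome 11, 107736263 to 107736322 (mm9), and whether it lies in the coding part or a UTR was not analysed here. The first 30 of its 60 bases are shown because this probe carries the only separated groups among the members, and because it is rich in A and T, with 31.7% G and C:
Cacng5 probe, first 30 bases: aacttttgtcaatgttattaacacctgtga

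Map3k15 encodes a kinase of the ASK family, which relays cell stress to the p38 and JNK pathways. It read -2.64, -3.31, -3.10 and -2.85 in controls 1 to 4 and -2.46, -2.68, -2.59 and -2.72 in the anti-CD4 arrays. The groups overlapped through control 1 alone, which lay above anti-CD4 2 and 4. The difference was 0.37 with a standard error of 0.14 (adjusted p = 0.338, limma; exact permutation p = 0.0857). Its processed signal was 85.5 to 147 units, and the difference was 0.17 after normexp and 0.13 in the authors' table. Without control 2 it was 0.26. Within the slide columns it was 0.19, 0.63, 0.51 and 0.14 (adjusted p = 0.474 with the column as a block, limma). For the other 7 tested members, the columns did not all have the same sign.

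The Map3k15 probe spans 131 bases of chromosome X, 156560393 to 156560523 (mm9, plus strand), with 60 bases of its own, so its bases are split over a gap in the genome. It is shown whole for that reason:
Map3k15 probe: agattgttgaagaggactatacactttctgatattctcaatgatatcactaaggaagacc

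Rgs14, a regulator of G-protein signalling that restrains synaptic plasticity in CA2, did not pass the test. It read 3.65, 3.97, 3.76 and 3.70 in controls 1 to 4 and 3.68, 3.53, 3.91 and 3.57 in the anti-CD4 arrays. The groups overlapped, with control 2 and anti-CD4 3 high and anti-CD4 2 and 4 low. The difference was -0.10 with a 95% interval of -0.34 to 0.14 (adjusted p = 0.712, limma), so a change of 0.5 or more in either direction lies outside this interval. Without control 2 and anti-CD4 2 together, an alternative chosen after seeing the data, it was 0.02.

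Amigo2, an adhesion molecule with leucine-rich repeats, read -1.86, -1.42, -1.35 and -1.23 in controls and -1.45, -1.97, -1.29 and -1.64 in the anti-CD4 arrays. Control 1 and anti-CD4 2 were the low arrays, and the groups overlapped over most of their range. The difference was -0.12 with a 95% interval of -0.52 to 0.28 (adjusted p = 0.794, limma). Without anti-CD4 2 it was 0.0063.

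Of the calcium-handling members Pcp4 and Necab2, Pcp4 had the narrower spread among controls, where Necab2 had an SD of 0.13. Pcp4, a small protein that binds calmodulin, read 5.30, 5.29, 5.25 and 5.22 in controls, an SD of 0.03, and 5.41, 5.50, 5.10 and 5.58 in the anti-CD4 arrays, an SD of 0.21. Of the 4 anti-CD4 arrays, 3 lay above every control, and anti-CD4 3 lay below every control. The difference was 0.13 with a 95% interval of -0.10 to 0.36 (adjusted p = 0.608, limma). It depended on single arrays in both directions. Without anti-CD4 3 the groups did not overlap and the difference was 0.23 (unadjusted p = 0.0111, adjusted p = 0.202, limma), and without anti-CD4 4 it was 0.07 (unadjusted p = 0.522, adjusted p = 0.854, limma).

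Necab2 encodes an EF-hand calcium-binding protein that binds adenosine and metabotropic glutamate receptors. It read 5.10, 4.79, 4.91 and 4.94 in controls and 5.07, 5.17, 4.72 and 4.98 in the anti-CD4 arrays. Anti-CD4 2 was the highest array and anti-CD4 3 the lowest, so the controls lay within the anti-CD4 range. The difference was 0.05 with a 95% interval of -0.20 to 0.30 (adjusted p = 0.878, limma). It was -0.02 in the authors' table, -0.01 without anti-CD4 2 and -0.06 without control 2 and anti-CD4 2 together.

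The CA3 markers Bok and Grik4 both spread widely within the groups. Bok, a member of the BCL-2 family of cell death regulators, read 3.21, 3.98, 3.66 and 3.45 in controls and 3.59, 2.88, 3.42 and 3.13 in the anti-CD4 arrays. Control 2 was highest, anti-CD4 2 lowest, and the groups overlapped. The difference was -0.32 with a 95% interval of -0.77 to 0.13 (adjusted p = 0.517, limma). It was -0.18 without control 2, -0.20 without anti-CD4 2 and -0.06 without both. In the authors' table it was -0.39 (unadjusted p = 0.0363, adjusted p = 0.272, limma).

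Grik4 encodes a high-affinity kainate receptor subunit found at mossy fibre synapses on CA3 cells. It read 2.98, 3.79, 3.37 and 3.17 in controls and 3.32, 2.79, 3.36 and 3.06 in the anti-CD4 arrays, with the same arrays at the extremes as for Bok. The difference was -0.20 with a 95% interval of -0.63 to 0.24 (adjusted p = 0.682, limma). It was -0.04 without control 2, -0.08 without anti-CD4 2 and 0.07 without both, but -0.31 without control 1 and -0.27 without anti-CD4 3. For Bok the difference was -0.44 without control 1.

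Iyd encodes the deiodinase that recovers iodide in the thyroid and is used as a CA3 marker from in situ staining. Its probe, on the minus strand of chromosome 10, 6792120 to 6792179 (mm9), gave processed signals of 11.4 to 35.4 units so 0 of 8 arrays put it well above background. No fold is given for it.

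**Figure D2:**
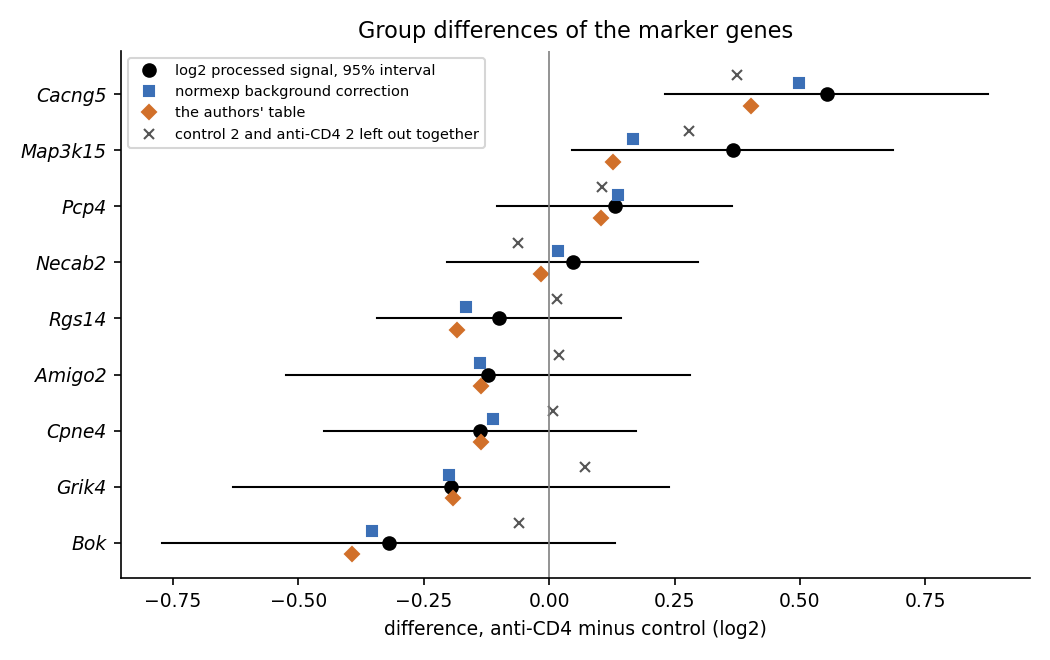
Log2 difference of each tested marker gene (anti-CD4 minus control), with its 95% interval from limma (black), beside the difference after normexp background correction, in the authors' table, and with control 2 and anti-CD4 2 left out together. The interval excludes 0 for Cacng5 and Map3k15 before adjustment, and Grik4, Rgs14, Amigo2, Cpne4 and Necab2 change sign without those 2 arrays.

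Cpne4 encodes a copine, a protein that binds membrane phospholipids when calcium rises. It is the only member with several probes, 4 in all and all well above background on every array. The brightest stands for the gene and read 3.22, 3.77, 3.39 and 3.17 in controls 1 to 4 and 3.40, 3.20, 3.29 and 3.11 in the anti-CD4 arrays. Control 2 was the high array, and the other controls lay among the anti-CD4 arrays. The difference was -0.14 with a 95% interval of -0.45 to 0.17 (adjusted p = 0.688, limma), and -0.01 without control 2.

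The 4 Cpne4 probes lie along chromosome 9 on the plus strand (mm9), in the order chr9:104775329-104775388, chr9:104895484-104895543, chr9:104935202-104935261 and chr9:104936317-104936376. They are shown in that order because they read the same gene at separate places, the second whole and the others by their first 30 bases:
Cpne4 probe A_51_P260288: atgcacaagagatcatgcaagtatatgcag
Cpne4 probe A_55_P2175015: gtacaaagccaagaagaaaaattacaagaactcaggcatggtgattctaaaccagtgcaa
Cpne4 probe A_55_P2150697: caccgtgaactacacttttacagaattctg
Cpne4 probe A_51_P105161: tcatgccaaatagcaacatggctgtccaac

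In the same order, the probes differed by -0.27, -0.04, -0.14 and -0.24 between the groups, and none passed in the fit of all tested probes (adjusted p = 0.473, 0.899, 0.688 and 0.466, limma). All 4 lay below controls on average, and control 2 was the highest array for 3 of them. The first probe is listed under the accession of a cDNA clone and the others under a RefSeq transcript, and its highest array was control 4, at -1.23. The last probe was printed as 10 spots on each array. Its repeat spots, outlier spots included, had an SD of 0.05 to 0.08 within an array. Its array means had an SD of 0.26 among controls and 0.10 among anti-CD4 arrays.

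**Figure D3:**
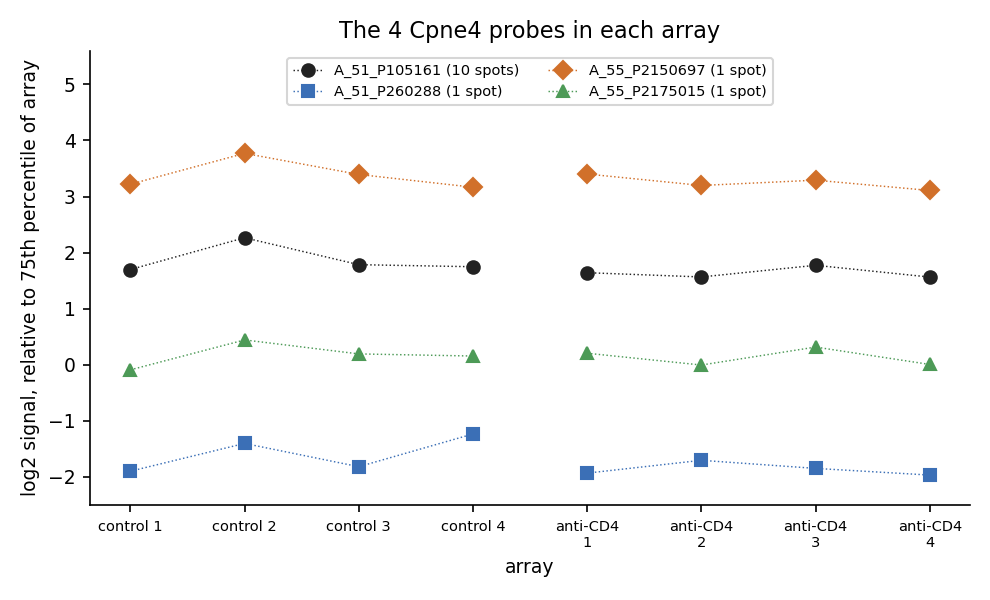
Log2 signal of the 4 Cpne4 probes, relative to each array's 75th percentile, by array; dotted lines join the arrays of a group and carry no order. Control 2 is the highest array for the 3 probes listed under a RefSeq transcript, and levels of different probes are not comparable with each other.

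The members did not vary as 1 block. Control 2 was the highest array for Rgs14, Bok, Grik4 and Cpne4 and the lowest for Cacng5 and Map3k15. Anti-CD4 2 was the lowest for Rgs14, Amigo2, Bok and Grik4 and the highest for Cacng5 and Necab2. After each group's mean was subtracted, 15 of the 36 pairs of members correlated above 0 over the 8 arrays and 4 pairs above 0.8. These correlations are descriptions over arrays that share a slide and a scaling. The highest was between Bok and Grik4 (Pearson r = 0.97, Spearman rho = 0.93). It placed Grik4 as number 51 of 23606 genes and unnamed probes in likeness to Bok. The raw values of this pair gave r = 0.96, and 0.86 over 6 arrays without control 2 and anti-CD4 2.

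Rgs14, used as a CA2 marker, varied with the CA3 markers Grik4 (r = 0.89) and Bok (r = 0.79) and with the CA2 marker Amigo2 (r = 0.64). It varied against the CA2 markers Necab2 (r = -0.90), Pcp4 (r = -0.71) and Cacng5 (r = -0.69). Cpne4 had an r of 0.86 with Grik4 and 0.84 with Bok, and Cacng5 had an r of 0.72 with Necab2. Some of these values depended on which arrays were used, as the raw values show. Leaving out control 2 and anti-CD4 2 took the raw r of Grik4 with Rgs14 from 0.90 to 0.73, that of Cacng5 with Necab2 from 0.54 to 0.02 and that of Cacng5 with Rgs14 from -0.65 to -0.07. Leaving out anti-CD4 2 and 3 gave 0.59 for Cacng5 with Necab2, and leaving out control 2 and anti-CD4 3 gave -0.58 for Cacng5 with Rgs14.

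**Figure D4:**
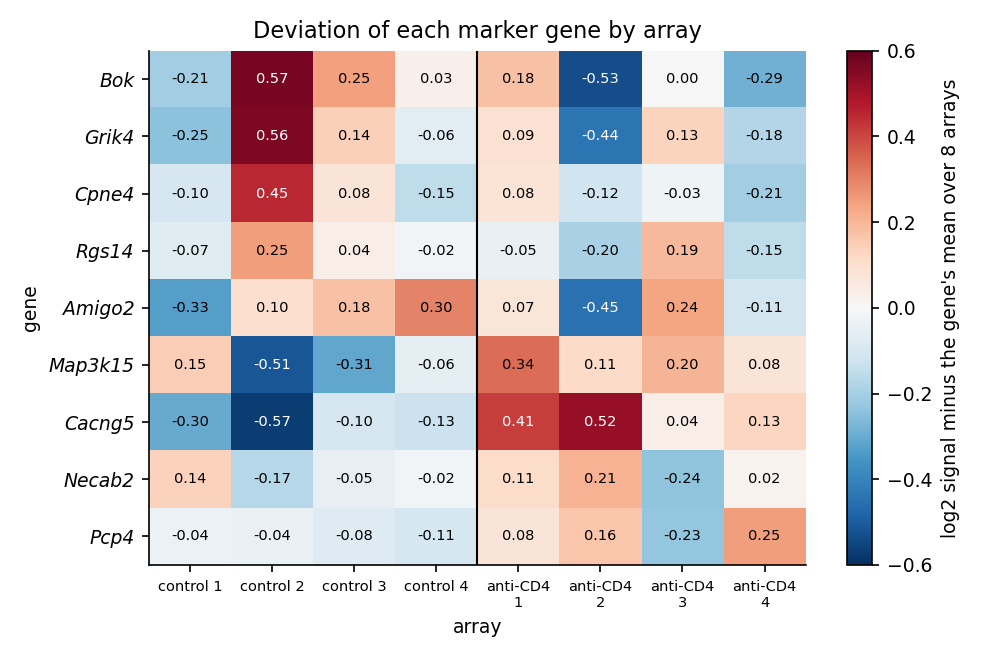
Log2 signal of each marker gene minus its own mean over the 8 arrays, with genes in rows and arrays in columns, red above and blue below the mean. Control 2 is red for the upper 5 genes and blue for the others, and anti-CD4 2 shows the opposite colours in all 9 rows.

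Likeness to each member was also ranked among genes with a characterised symbol. Members, unnamed probes and clone or predicted gene names were left out of this ranking. The most alike over the 8 arrays, by r after subtracting group means, were Kbtbd11 (0.995) and Taldo1 (0.993) for Bok. They were Dtwd1 and Smoc2 for Grik4 (0.992 each), and Dock11 (0.994) and Etfdh (0.987) for Rgs14. For Cpne4 they were Nudt13 (0.992) and Clcc1 (0.985), and for Amigo2 Sfpq (0.9895) and Cerk (0.986). For Cacng5 they were Sdk2 (0.981) and Trim8 (0.975), for Necab2 Ipo4 (0.986) and Vmac (0.985), for Pcp4 Prr13 (0.981) and Nudt2 (0.978), and for Map3k15 Dag1 (0.967) and Mmp14 (0.948). With many candidates left and only 8 arrays, values this high are the upper end of many and are given only to name these genes.

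Other genes used as markers of CA2 were described in the same way. Of 9 listed, 8 were tested, 2 above and 6 below controls, 0 of 8 at an unadjusted p under 0.05, with a median of -0.13. Actn2, an actin cross-linker of dendritic spines, differed by -0.17, Adora1, the inhibitory adenosine receptor, by -0.17, and Ptpn5, a striatum-enriched tyrosine phosphatase, by 0.18 (adjusted p = 0.458, 0.511 and 0.503, limma). Without control 2 and anti-CD4 2 the list's median was 0.01, with 4 genes on each side.

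Of 11 other CA3 markers, all tested, 3 were higher and 8 lower, and 2 had an unadjusted p under 0.05, Sv2b and Nectin3, both lower, where 6.83% of all genes tested were lower at that p. With arrays centred on their median, 1 gene of the list was lower at that p, against 4.06% of all genes tested. No gene of the list passed the adjusted threshold, and the median was -0.14. Sv2b, a synaptic vesicle glycoprotein, read 3.65 to 3.83 in controls and 3.38 to 3.53 in the anti-CD4 arrays. These groups did not overlap, and the difference was -0.30 with a standard error of 0.07 (adjusted p = 0.222, limma). It was -0.30 without control 2 and anti-CD4 2 as well.

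Nectin3, a junction protein at mossy fibre contacts, read 1.30 to 1.74 in controls and 1.12 to 1.20 in the anti-CD4 arrays, a difference of -0.28 (adjusted p = 0.314, limma). Another probe of this gene differed by -0.29 and a further one by 0.06, so its probes disagree. Tspan18, a membrane tetraspanin, differed by -0.41 and Coch, a secreted matrix protein, by 0.63 (adjusted p = 0.413 and 0.430, limma). Coch was 0.38 after normexp and 0.25 in the authors' table, and Tspan18 was -0.15 without control 2 and anti-CD4 2. Another Tspan18 probe differed by -0.81 over all arrays (adjusted p = 0.295 in the fit of all tested probes, limma).

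Close relatives of the members numbered 31, all tested, with 18 higher, 13 lower and a median of 0.01. Of these 31, 3 higher and 2 lower had an unadjusted p under 0.05, against 13.0% of all genes tested, and none passed the adjusted threshold. Grik5, the other high-affinity kainate subunit, differed by -0.23 (-0.14 after normexp) and Cpne6, a copine of excitatory neurons, by -0.30. For each, the anti-CD4 arrays lay below all controls (adjusted p = 0.254 and 0.257, limma). Rgs10, a small regulator of G-protein signalling, differed by 0.29 and Cacng7, the TARP most akin to Cacng5, by 0.25 (adjusted p = 0.272 each, limma). The Cacng7 groups did not overlap either, with the anti-CD4 arrays above all controls. Another Cacng7 probe differed by 0.08. Of the 31 relatives, groups did not overlap for 1 higher and 2 lower, against 3.83% and 4.36% of all genes tested. Of 11 listed binding partners of the members, such as G-protein, calmodulin and AMPA receptor subunit genes, 10 were tested and 0 had an unadjusted p under 0.05. Their split was 5 higher and 5 lower, and it turned with the scaling, to 8 higher and 2 lower with arrays centred on their median and 1 higher and 9 lower with quantile normalization.

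Marker lists of other fields and neighbouring tissue were read beside these results. Dentate granule markers had a median of -0.30, with 12 of 14 tested genes below controls. Of these 14, 3 lower and 1 higher had an unadjusted p under 0.05, against 6.83% and 6.17% of all genes tested. With arrays centred on their median these counts were 1 lower and 1 higher, against 4.06% and 8.76%. Npnt differed by -0.49 and Calb1 by 0.43 (adjusted p = 0.272 and 0.307, limma). CA1 markers had a median of -0.15, with 7 of 11 below. Of these 11, only Tyro3 had an unadjusted p under 0.05, against 13.0% of all genes tested. It was higher by 0.24 with groups that did not overlap (adjusted p = 0.268, limma). Without control 2 and anti-CD4 2 the dentate and CA1 medians were -0.11 and -0.04. Relative to its control mean, the dentate list was highest in control 2, at 0.29, and lowest in anti-CD4 2 and 4, at -0.59 and -0.42. Control 2 and anti-CD4 2 were also the highest and lowest arrays for Bok and Grik4. The same held for the mean of general pyramidal neuron markers, at 0.12 and -0.30. The part of dentate or general pyramidal signal in the Bok and Grik4 values was not tested. Prox1 read -0.81 to -0.30 in controls and -1.64 to -0.62 in the anti-CD4 arrays. Of 6 general pyramidal neuron markers, 5 were lower and 1 higher, with a median of -0.11. Of the 5, 1 had an unadjusted p under 0.05, where 6.83% of all genes tested were lower at that p. That gene, the transcription factor Neurod6, had the largest difference of the 6, at -0.50 (adjusted p = 0.247, limma), while Slc17a7, the vesicular glutamate transporter, differed by -0.04. Wfs1 differed by 0.10.

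Markers of thalamus and habenula lay above controls, as Cacng5 did. All 11 tested of 16 listed were above controls, against 51.8% of all genes tested. Of these 11, 3 had an unadjusted p under 0.05, where 6.17% of all genes tested were higher at that p. Groups did not overlap for 0 of them, against 3.83% of all genes tested on the higher side. Their median was 0.23, and 0.14 with 1 gene below controls when control 2 and anti-CD4 2 were left out. Their mean, relative to controls, was -0.21 to 0.15 in controls and 0.23 to 0.40 in the anti-CD4 arrays. Tcf7l2, the defining thalamic factor, was well above background on all arrays and differed by 0.11 (adjusted p = 0.751, limma), while Zic1, a zinc finger factor, differed by 0.50 (adjusted p = 0.286, limma). The habenular markers Pou4f1 and Gpr151 and the thalamic marker Gbx2 did not pass the background filter. The striatum list, with 9 of 11 tested, had 6 genes higher and 3 lower, and a median of 0.27. Of the 6, 2 had an unadjusted p under 0.05, where 6.17% of all genes tested were higher at that p. Without control 2 and anti-CD4 2 the median was 0.05, with 5 higher and 4 lower. Its mean ran from -0.36 in control 2 to 0.21 among controls, and from 0.0091 in anti-CD4 3 to 0.57 in anti-CD4 2. Tac1, the tachykinin precursor of striatal neurons, differed by 0.58 (adjusted p = 0.254, limma), and Drd2 and Adora2a did not pass the filter. All 5 listed red blood cell genes were tested. Their list means did not overlap between groups, with values of -0.25 to 0.18 in controls and 0.42 to 0.65 in the anti-CD4 arrays. Of the 5, all were higher at an unadjusted p under 0.05, against 6.17% of all genes tested. Groups did not overlap for 4 of them, against 3.83% of all genes tested on the higher side, and they overlapped for Hba-a2. Of 8 endothelial genes, 7 were higher, 5 at an unadjusted p under 0.05 and 4 with groups that did not overlap. The shares of all genes tested that were higher in these ways were 6.17% and 3.83%. The endothelial median was 0.20, with list means of -0.16 to 0.09 in controls and 0.04 to 0.26 in the anti-CD4 arrays. Of 10 oligodendrocyte genes, 4 were higher and 6 lower, 4 of the latter at an unadjusted p under 0.05. Of all genes tested, 6.83% were lower at that p. With arrays centred on their median, 1 oligodendrocyte gene was lower at that p, against 4.06% of all genes tested. Without control 2 and anti-CD4 2 this count was 0. The oligodendrocyte median was -0.15, and 0.04 without control 2 and anti-CD4 2. The part of thalamic, striatal, blood or vessel RNA in the Cacng5 value was not tested.

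**Figure D5:**
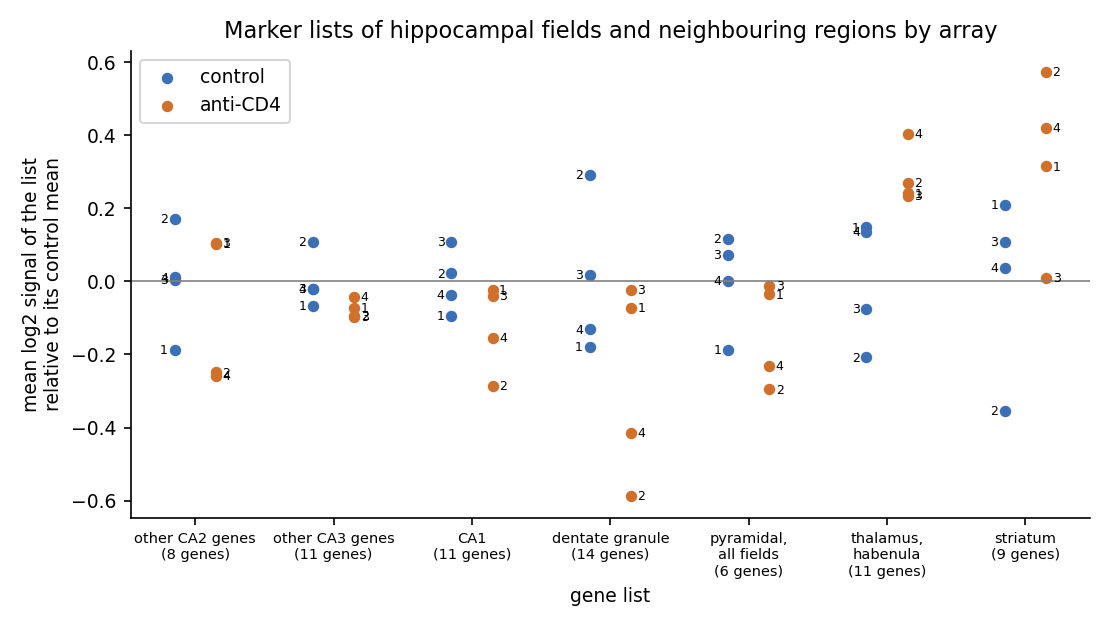
Mean log2 signal of marker lists in each array, relative to the list's control mean, with controls in blue, anti-CD4 arrays in orange and replicate numbers beside the points. The dentate list is lowest in anti-CD4 2 and 4, at -0.59 and -0.42, and the thalamus and habenula list is at 0.23 or above in all anti-CD4 arrays.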

How the data were processed

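One-colour Cy3 Agilent arrays of design 028005 were read from the authors' deposited scanner files. Per the file headers, Feature Extraction 10.7.3.1 made a processed spot intensity, background-subtracted and detrended within the array. The authors also deposited a table of log2 values, for which the submitters' processing notes name limma; its columns share nearly one distribution, and its normalization method is not given in the sources used here.

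Control spots were left out, and so were outlier spots unless all spots of a probe were flagged. The log2 intensities of a probe's spots were averaged and centred on the array's 75th percentile. Each array had 51.1% to 54.3% of its probes well above background, and 0 saturated. Symbols came from a GRCm38.p6 table; probe positions are those of the files (mm9). The brightest tested probe stood for a gene. Groups were compared with lmFit and eBayes in limma 3.58.1 under R 4.3.3; tests were two-sided, and p-values were Benjamini-Hochberg adjusted over 23607 genes and unnamed probes and a threshold of 0.05. On simulated arrays with those 23607 rows, 42.8% of genes changed by 0.5 and 81.0% of genes changed by 1 (log2) were called. The simulation drew each gene independently with its own spread, without variation shared between genes, so these rates need not hold for the real arrays. The number of arrays limits the precision.

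The rule for named genes took all 10 members, up to 4 genes with the smallest p of each related list and up to 2 of each marker list. It also took the defining markers Prox1, Wfs1, Ttr and Tcf7l2, and the 2 genes with a characterised symbol most like each member. Members and lists were chosen with earlier results of these data known. Alternatives covered normalization, background correction, the filter, the probe of a gene, the replicate block, array weights, empirical Bayes options, each array left out and the table the authors deposited.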

Additional observations from a re-analysis of the deposited data

Results flagged for a closer look

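For the members and some of the other genes named here, 54 groups of 4 values were examined. Of these, 2 (3.70%) held an array apart from the other 3 by a gap test, where chance gives about 1 in 20. None belonged to a CA2 or CA3 marker of the report's 9 tested members. Cacng7 read 3.348 in control 1, with the other controls at 3.486 to 3.499. Ttr, the transthyretin gene of choroid plexus, read 1.218 in anti-CD4 1, with the rest of its group at 7.596 to 8.478.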

How the results depend on the processing

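No member passed the adjusted threshold in any setting, including 0.1 as the threshold. Over all genes, 2 passed with trend and robust empirical Bayes, 2 in the authors' table and 0 to 11 with 1 array left out (11 without anti-CD4 replicate 3). Members at an unadjusted p under 0.05 numbered 1 after normexp, 1 without control 2 and anti-CD4 2 together, and 1 to 2 with 1 array left out; in the authors' table the 2 were Cacng5 and Bok. Members with separate groups numbered 1 to 2 with 1 array left out, adding Map3k15 without control 1 and Pcp4 without anti-CD4 3. Cacng5 kept its direction and an unadjusted p under 0.05 in 19 of 19 settings, with differences of 0.37 to 0.63 and adjusted p of 0.136 to 0.611 (limma). The settings overlap. The filters, the mean of probes, the replicate block and the empirical Bayes options could change only its p, not its difference. Without control 2 and anti-CD4 2 together, signs turned for Rgs14 (0.015), Amigo2 (0.020), Necab2 (-0.063), Grik4 (0.072) and Cpne4 (0.0073). Necab2 was -0.016 in the authors' table. With 1 array left out, Necab2 ran from -0.015 to 0.14, Amigo2 from -0.25 to 0.0063, Tcf7l2 from -0.012 to 0.22 and Ttr from -0.12 to 3.27. A further Nectin3 probe gave 0.061. Where values moved, the cause was not tested. Same-numbered arrays did not deviate together (r of -0.45, -0.29, -0.31 and 0.30, with 1 of 4 controls nearest its own number), though they shared a slide column. With the replicate block, which is also the slide column, 0 genes passed and Cacng5 had an adjusted p of 0.473. Processed signals were 253 to 485 units for Cacng5, 194 to 315 for Amigo2 and 85.5 to 147 for Map3k15, all well above background by the scanner software's call.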
